A study of Mus musculus with 7 samples.

Results

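The 40 genes described here are interferon-stimulated genes, chosen as a named list and found by symbol in a count table of 24421 genes from adult mouse left atria. All 40 were present, and all 40 were among the 13295 genes that passed the filter on low counts. The study compared FOG2 overexpression with wild type: 4 libraries carried the genotype label FOG2 Overexpression and 3 were labelled wild type, all from left atria of adult mice of the outbred CD1 strain. The labels' protocol names DTG and NTG animals, all kept off doxycycline for 1 week before harvest. The promoter that drives FOG2 and the cells it acts in were not given in the sources used here. FOG2 is the product of Zfpm2, a cofactor that binds GATA transcription factors. Whether the libraries came from separate animals is not labelled; the p-values below therefore rest on the variation among these 7 libraries, part of which may be technical.

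Interferons are secreted proteins that cells release on sensing viral or misplaced nucleic acid. Type I interferons bind the receptor Ifnar1 with Ifnar2, and the kinases Jak1 and Tyk2 then activate STAT proteins, of which Stat2 joins Irf9 in the complex ISGF3. This complex binds the interferon-stimulated response element in the promoters of genes whose products detect, degrade or block the translation of viral RNA. Interferon gamma uses a separate receptor, Ifngr1 with Ifngr2, and acts mainly through the gamma-activated sequence.

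The promoter sequences are shown because the response element is the feature by which many members are known. RefSeq promoter windows (build GRCm38.p6, 250 bases before to 50 after each start) were found for 30 of the 40 members. The core searched was GAAA, any 2 bases, GAAA, on both strands. It lay in a window of 17 of the 30 members (56.7%), against 3.99% of the 27025 genes with a window. A core of the gamma-activated sequence, TTC, any 3 bases, GAA, lay in 8 of the 30 (26.7%), against 9.55% of all genes. Below are the 200 bases before the start of 4 members, written 5′ to 3′ on the gene's strand in lower case, with each core in capitals. Rsad2 holds 1 core (chr12:26456453-26456652, minus strand), Ifit1 holds 2 (chr19:34640689-34640888, plus strand), Ifit3 holds 2 (chr19:34583329-34583528, plus strand) and Isg15 holds 3 that overlap (chr4:156200819-156201018, minus strand).
Rsad2: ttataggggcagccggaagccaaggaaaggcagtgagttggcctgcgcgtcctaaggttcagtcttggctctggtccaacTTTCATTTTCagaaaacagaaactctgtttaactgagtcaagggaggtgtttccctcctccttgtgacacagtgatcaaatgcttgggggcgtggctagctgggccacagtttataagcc
Ifit1: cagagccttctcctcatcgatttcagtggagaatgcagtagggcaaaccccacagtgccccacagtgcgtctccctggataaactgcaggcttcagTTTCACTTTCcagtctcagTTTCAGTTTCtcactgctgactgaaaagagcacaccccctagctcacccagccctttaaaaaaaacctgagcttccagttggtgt
Ifit3: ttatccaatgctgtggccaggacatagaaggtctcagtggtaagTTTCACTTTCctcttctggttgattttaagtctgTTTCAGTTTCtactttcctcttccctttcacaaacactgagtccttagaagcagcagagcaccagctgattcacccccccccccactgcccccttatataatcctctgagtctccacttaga
Isg15: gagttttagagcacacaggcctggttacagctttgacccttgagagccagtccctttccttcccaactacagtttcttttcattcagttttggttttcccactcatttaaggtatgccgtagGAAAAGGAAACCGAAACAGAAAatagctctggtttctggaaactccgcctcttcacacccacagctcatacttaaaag

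The 17 members with a core had a median log2 fold change of 0.69 (FOG2 overexpression over wild type) and the 13 without one a median of 0.43. In each of the 2 sets, 1 member was among those called higher below. Whether the core bears on the fold changes was not tested. Ifit2, which is described below as higher, had windows at 2 starts and a core in neither.

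Zfpm2 itself had 140, 222, 262 and 246 CPM (counts scaled to a common library size by TMM) in FOG2 overexpression replicates 1 to 4, against 31.7, 30.9 and 29.4 CPM in wild type replicates 1 to 3. Its log2 fold change was 2.82 ± 0.22 (SE), with an adjusted p of 2.05e-04 by edgeR's quasi-likelihood test. Gene counts summed to 5562520 to 8655655 per library, so that 1 count stood for 0.111 to 0.174 CPM. FOG2 overexpression replicate 1 stood apart: its correlation with the other 3 libraries of its group across genes was 0.947 to 0.949, against 0.978 to 0.983 among those 3. It also had the lowest Zfpm2 level of its group and 352 CPM summed over 6 markers of dividing cells, against 24.1 to 29.9 CPM in the other 3 and 16.7 to 34.9 CPM in wild type. By Xist and Y-linked genes, FOG2 overexpression replicate 1 and wild type replicate 2 came from males and the other 5 libraries from females, which the labels do not give. Results that rest on FOG2 overexpression replicate 1 are given with and without it.

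Across the 7 libraries, 2 members rose in FOG2 overexpression and none fell. Rsad2 and Ifit2 passed an adjusted p of 0.05 in edgeR's quasi-likelihood test, Benjamini-Hochberg adjusted over all 13295 genes. That is 5.0% of the members, against 4.84% of all tested genes called in either direction, 1.55% called higher and 3.29% called lower. The share called in either direction was thus near the background. At an unadjusted p under 0.05, 14 members were higher (35.0%, against 9.14% of all tested genes) and 0 were lower (against 10.0%). The fold change was above 0 for 38 of 40 members, against 53.2% of all tested genes, and the members' median log2 fold change was 0.71, against 0.02 over all tested genes. In 4 members, Rsad2, Ifit2, Oasl1 and Ifi35, every FOG2 overexpression library was above every wild type library (10.0%, against 8.99% of all tested genes). In 0 members was it the other way round (against 10.8%). In whole tissue, more RNA per cell and more cells that express a gene cannot be told apart.

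**Figure D1:**
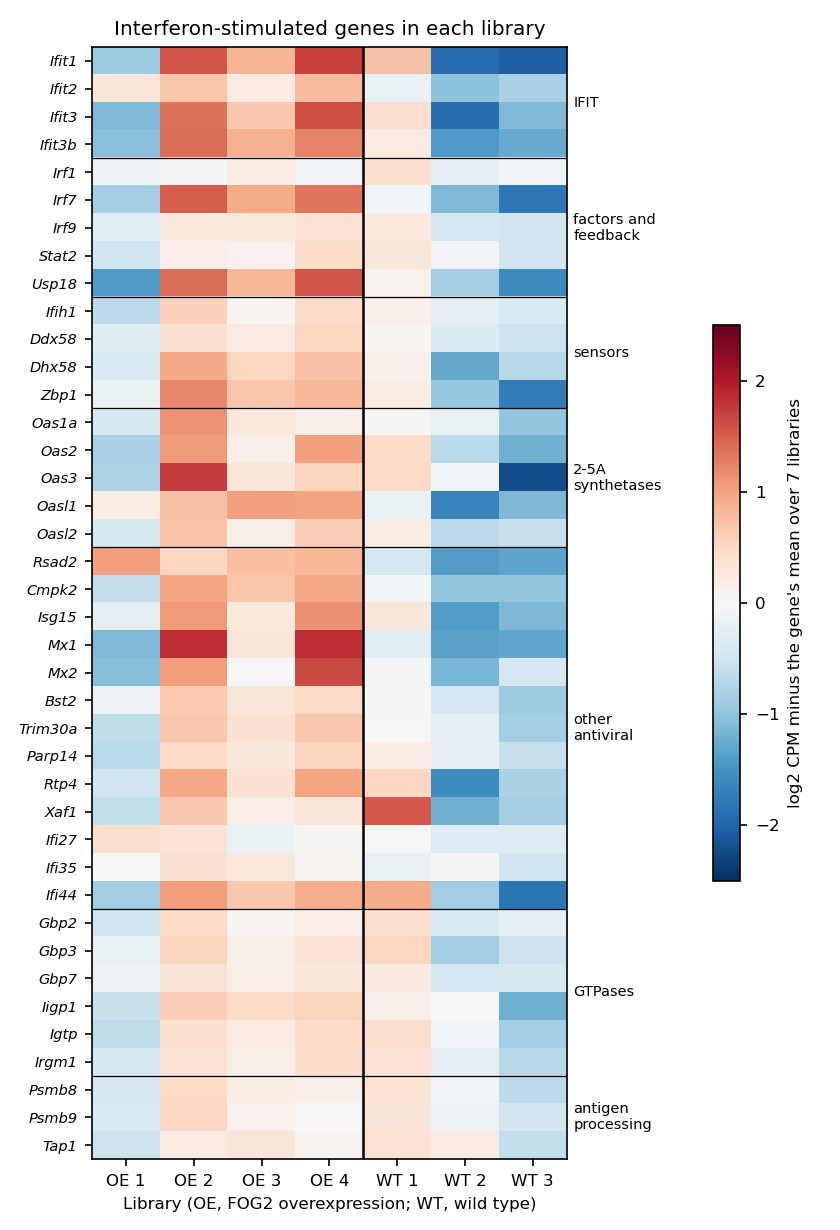
Level of each of the 40 members in each library, as log2 CPM minus the gene's mean over the 7 libraries, with FOG2 overexpression (OE) left of wild type (WT) and the genes grouped by role. Within FOG2 overexpression, replicate 1 is the lowest column for 37 of the 40 genes, and within wild type, replicate 1 is the highest for 39.

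Rsad2 encodes viperin, a radical SAM enzyme that makes an antiviral nucleotide analogue. It had 19.2, 13.7, 15.8 and 16.9 CPM in FOG2 overexpression replicates 1 to 4, against 6.80, 3.39 and 3.57 CPM in wild type replicates 1 to 3. The groups did not overlap, and the highest value of all was in FOG2 overexpression replicate 1. The log2 fold change was 1.83 ± 0.26 (3.55-fold; edgeR adjusted p = 0.00446), and 1.74 ± 0.25 without that library (adjusted p = 0.00196). Rsad2 passed the threshold in all 16 alternative settings that were run.

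Cmpk2, a mitochondrial nucleotide kinase, is the neighbour of Rsad2 on chromosome 12. Cmpk2 (chr12:26469204-26479837, plus strand) and Rsad2 (chr12:26442746-26456452, minus strand) are transcribed away from each other. Cmpk2 had 6.33, 19.6, 15.8 and 19.2 CPM in FOG2 overexpression, against 9.30, 4.80 and 4.80 CPM in wild type. In FOG2 overexpression replicate 1 it was thus below wild type replicate 1, in the library where Rsad2 was highest. The log2 fold change of 1.26 ± 0.42 did not pass (edgeR adjusted p = 0.145), whereas without FOG2 overexpression replicate 1 it was 1.52 ± 0.25 (adjusted p = 0.00451).

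The 4 IFIT genes lie in one cluster on chromosome 19 and encode proteins that bind foreign RNA and block its translation; 1 of the 4 rose and their median log2 fold change was 1.51. Ifit2 (chr19:34550694-34576419, plus strand) had 35.2, 46.5, 33.1 and 49.6 CPM in FOG2 overexpression, against 25.3, 14.0 and 16.3 CPM in wild type. Every FOG2 overexpression library was above every wild type library. The log2 fold change was 1.15 ± 0.23 (2.21-fold; edgeR adjusted p = 0.0256). Ifit2 passed in 11 of 16 alternative settings, and among those that left out 1 library it lost the call in 4. Its adjusted p was 0.0650 without FOG2 overexpression replicate 2, 0.0589 without replicate 4, 0.112 when wild type replicate 2 was left out and 0.0987 when replicate 3 was.

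The remaining IFIT genes did not pass, and their groups overlapped through the same libraries. Ifit1 had 8.0, 44.3, 27.1 and 49.5 CPM in FOG2 overexpression, against 24.9, 3.81 and 3.45 CPM in wild type (log2 fold change 1.57 ± 0.84; edgeR adjusted p = 0.371). Ifit3 had 9.22, 52.6, 32.2 and 61.3 CPM in FOG2 overexpression, against 26.8, 5.23 and 9.11 CPM in wild type (1.48 ± 0.73; adjusted p = 0.333). Ifit3b had 2.44, 14.6, 10.1 and 13.0 CPM in FOG2 overexpression, against 6.20, 1.84 and 2.09 CPM in wild type (1.55 ± 0.65; adjusted p = 0.244). In each of these, FOG2 overexpression replicate 1 was below wild type replicate 1 and above wild type replicate 2. Ifit3 and Ifit3b are near-identical copies, so their separate levels are uncertain. Of the 50-base windows of the longest Ifit3 transcript, 51.2% occur in other genes, most in Ifit3b. For Ifit3b the share is 45.0%, most in Ifit3.

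**Figure D2:**
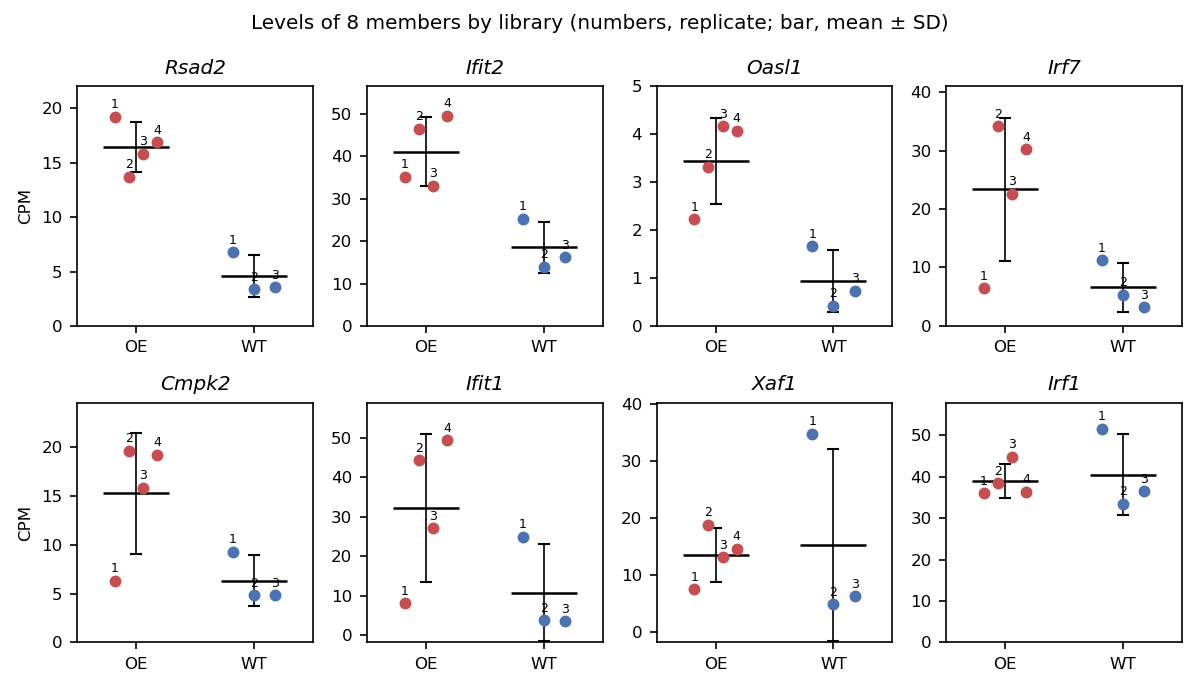
CPM of 8 members in each FOG2 overexpression (OE, red) and wild type (WT, blue) library, with replicate numbers and the mean ± SD of each group, on linear axes; each panel has its own scale. Rsad2, Ifit2 and Oasl1 do not overlap between groups, while Irf7, Cmpk2 and Ifit1 overlap through FOG2 overexpression replicate 1, and the Xaf1 wild type mean is carried by replicate 1 at 34.8 CPM.

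Of the 5 transcription factors and feedback genes, 0 passed, and their median log2 fold change was 0.35. Irf7, the factor that drives interferon alpha genes, had 6.44, 34.2, 22.6 and 30.3 CPM in FOG2 overexpression, against 11.2, 5.37 and 3.20 CPM in wild type. Its 3 other FOG2 overexpression libraries were above all wild type libraries, but replicate 1 was below wild type replicate 1. The log2 fold change was 1.81 ± 0.61 (edgeR adjusted p = 0.152), and 2.13 ± 0.40 without FOG2 overexpression replicate 1 (adjusted p = 0.0195). Usp18 removes Isg15 from proteins and damps signalling at Ifnar2, and had 2.11, 16.3, 11.0 and 18.5 CPM in FOG2 overexpression, against 6.44, 3.25 and 1.85 CPM in wild type. Without FOG2 overexpression replicate 1 it too passed, with 1.98 ± 0.39 (adjusted p = 0.0170), against 1.62 ± 0.70 with it (adjusted p = 0.257).

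The ISGF3 subunits Irf9 and Stat2 did not pass. Irf9 averaged 37.3 ± 6.70 CPM in FOG2 overexpression (SD, n = 4) and 29.2 ± 8.42 CPM in wild type (SD, n = 3; edgeR adjusted p = 0.403). Stat2 averaged 28.1 ± 7.35 CPM in FOG2 overexpression and 25.4 ± 6.62 CPM in wild type (edgeR adjusted p = 0.795). Irf1, a factor that responds mainly to interferon gamma, had 36.1, 38.4, 44.9 and 36.4 CPM in FOG2 overexpression, against 51.6, 33.5 and 36.5 CPM in wild type. Its log2 fold change was -0.06 ± 0.16 (0.0561 with library totals in place of TMM), and the FOG2 overexpression values lay within the wild type range.

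None of the 4 nucleic acid sensors passed, and their median log2 fold change was 0.78. Dhx58 encodes LGP2, a helicase without the signalling domains of its relatives, and had 3.11, 8.23, 6.09 and 6.98 CPM in FOG2 overexpression, against 4.53, 1.55 and 2.46 CPM in wild type (1.08 ± 0.43; edgeR adjusted p = 0.212). Zbp1, which binds Z-form nucleic acid, had 2.33, 6.50, 4.52 and 4.89 CPM in FOG2 overexpression, against 3.10, 1.27 and 0.616 CPM in wild type (1.43 ± 0.53; adjusted p = 0.186). In both genes FOG2 overexpression replicate 1 lay between wild type replicates 1 and 2. Ddx58, which encodes the RNA sensor RIG-I, averaged 54.4 ± 12.7 CPM in FOG2 overexpression and 38.9 ± 8.85 CPM in wild type. Ifih1, which encodes the sensor of long double-stranded RNA MDA5, averaged 50.9 ± 17.5 CPM in FOG2 overexpression and 40.1 ± 7.44 CPM in wild type. Without FOG2 overexpression replicate 1, Dhx58 (adjusted p = 0.0399) and Ddx58 (adjusted p = 0.0380) passed, and Zbp1 (0.0525) and Ifih1 (0.0719) did not.

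The oligoadenylate synthetases make the messenger that switches on the nuclease RNase L; of the 5 family members 0 passed, and the median log2 fold change was 0.86. Oasl1, a family member without that enzyme activity, which in mice represses translation of Irf7, had 2.22, 3.32, 4.18 and 4.07 CPM in FOG2 overexpression, against 1.67, 0.424 and 0.739 CPM in wild type. The groups did not overlap, and the log2 fold change was 1.82 ± 0.46. These levels rested on few counts, 20, 23, 24 and 35 in FOG2 overexpression, against 14, 3 and 6 in wild type. Oasl1 narrowly missed the threshold (edgeR adjusted p = 0.0570), and passed in 7 of 16 settings. Oas2 averaged 7.14 ± 3.77 CPM in FOG2 overexpression and 3.91 ± 2.55 CPM in wild type, and Oasl2 46.0 ± 15.0 CPM in FOG2 overexpression and 29.6 ± 10.3 CPM in wild type. Oas1a averaged 2.68 ± 1.36 CPM in FOG2 overexpression and 1.53 ± 0.60 CPM in wild type, and shares 57.6% of its 50-base windows with other genes, most with Oas1g, so its level is uncertain. Oas3 was the least abundant member per length, at 0.186 CPM per kilobase over the 7 libraries, and had 0 counts in wild type replicate 3, which allows up to 0.369 CPM there. Oas1a, Oas2, Oas3 and Oasl2 did not pass, and in each the groups overlapped.

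Among the 13 other antiviral and interferon-induced genes, Rsad2 was the one that passed, and the median log2 fold change was 0.75. Mx1, a GTPase that blocks influenza virus in the nucleus of mouse cells, had 0.889, 8.52, 2.78 and 8.61 CPM in FOG2 overexpression, against 1.79, 0.706 and 0.739 CPM in wild type. Its log2 fold change of 2.24 ± 0.79 was the highest of the 40 members, yet it did not pass (edgeR adjusted p = 0.173). Isg15, a ubiquitin-like protein that is attached to other proteins, had 4.11, 10.4, 5.91 and 11.1 CPM in FOG2 overexpression, against 5.96, 1.69 and 2.09 CPM in wild type (1.26 ± 0.51; adjusted p = 0.223). In both genes FOG2 overexpression replicates 2 and 4 were highest. Bst2, or tetherin, which holds budding virus at the cell surface, had 18.1, 31.5, 24.9 and 27.9 CPM in FOG2 overexpression, against 20.4, 14.8 and 10.7 CPM in wild type (0.74 ± 0.25; adjusted p = 0.144). Here the groups overlapped only by FOG2 overexpression replicate 1 and wild type replicate 1.

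Ifi35 had 25.9, 33.8, 31.1 and 27.1 CPM in FOG2 overexpression, against 22.5, 24.7 and 18.1 CPM in wild type (0.43 ± 0.15; edgeR adjusted p = 0.146). Its groups did not overlap, with 25.9 CPM in the lowest FOG2 overexpression library and 24.7 CPM in the highest wild type library, and 16.8% of its exonic length is shared with the opposite-strand gene Gm11626, from which unstranded reads cannot be told apart. Parp14, an ADP-ribosyltransferase and 1 of the 3 most abundant members, had 41.4, 93.4, 80.7 and 98.4 CPM in FOG2 overexpression, against 75.7, 56.1 and 44.8 CPM in wild type (0.41 ± 0.30; adjusted p = 0.501). Xaf1, which promotes cell death, had 7.55, 18.9, 13.2 and 14.7 CPM in FOG2 overexpression, against 34.8, 4.94 and 6.40 CPM in wild type. Its highest value of all was in wild type replicate 1, and it was 1 of 2 members with a fold change below 0 (-0.20 ± 0.66; adjusted p = 0.898). Without wild type replicate 1 the log2 fold change of Xaf1 was 1.25.

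The remaining 5 of these genes did not pass. Mx2, a relative of Mx1, averaged 8.03 ± 5.88 CPM in FOG2 overexpression and 3.32 ± 1.28 CPM in wild type. Trim30a, which damps signalling by Toll-like receptors in mice, averaged 37.5 ± 13.2 CPM in FOG2 overexpression and 23.2 ± 6.57 CPM in wild type, and passed without FOG2 overexpression replicate 1 (edgeR adjusted p = 0.0195). Rtp4, a receptor transporter protein, averaged 18.5 ± 7.69 CPM in FOG2 overexpression and 9.54 ± 7.19 CPM in wild type. Ifi44 averaged 10.3 ± 4.70 CPM in FOG2 overexpression and 6.04 ± 5.99 CPM in wild type, with 12.9 CPM in wild type replicate 1 alone. Ifi27, the second most abundant member per length, averaged 56.8 ± 11.0 CPM in FOG2 overexpression and 43.6 ± 6.18 CPM in wild type, and its highest value, 67.9 CPM, was in FOG2 overexpression replicate 1.

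The interferon-inducible GTPases, which attack the vacuoles of intracellular pathogens, include 6 members, of which 0 passed, and the median log2 fold change was 0.32. Gbp2, a guanylate-binding protein and the most abundant member both in CPM and per length, had 69.4, 137, 102 and 109 CPM in FOG2 overexpression, against 132, 74.9 and 83.0 CPM in wild type (0.11 ± 0.26; edgeR adjusted p = 0.855). Gbp7 had 62.9, 87.9, 78.6 and 84.6 CPM in FOG2 overexpression, against 81.7, 51.5 and 52.8 CPM in wild type (0.34 ± 0.18; adjusted p = 0.366). In both genes wild type replicate 1 lay among the FOG2 overexpression libraries. Gbp3 averaged 30.5 ± 6.50 CPM in FOG2 overexpression and 23.1 ± 12.6 CPM in wild type. Iigp1 had 38.2, 86.6, 78.5 and 83.1 CPM in FOG2 overexpression, against 61.2, 55.8 and 24.1 CPM in wild type, so that FOG2 overexpression replicate 1 alone lay in the wild type range. Igtp averaged 24.2 ± 7.27 CPM in FOG2 overexpression and 20.5 ± 8.70 CPM in wild type, and Irgm1 41.6 ± 9.96 CPM in FOG2 overexpression and 33.8 ± 12.4 CPM in wild type.

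The 3 antigen processing genes had the lowest median of the roles, 0.16, and 0 passed. Psmb8, a catalytic subunit of the immunoproteasome, averaged 19.5 ± 4.90 CPM in FOG2 overexpression and 16.9 ± 5.67 CPM in wild type. Psmb9, another such subunit, averaged 8.65 ± 2.21 CPM in FOG2 overexpression and 7.71 ± 2.22 CPM in wild type. Tap1, which carries peptides into the endoplasmic reticulum, averaged 15.5 ± 3.68 CPM in FOG2 overexpression and 15.4 ± 5.11 CPM in wild type (log2 fold change 0.00 ± 0.27). In each of these genes the difference was smaller than the SD within either group.

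The libraries of one group differed more in these genes than in most others. The SD of log2 CPM among FOG2 overexpression libraries had a median of 0.55 over the members, against 0.22 over all tested genes, and among wild type libraries 0.53, against 0.15. Mean abundance was similar, with a median of 19.8 CPM for the members and 24.4 CPM for all tested genes. Summed over the 40 members, FOG2 overexpression replicates 1 to 4 had 739.5, 1408, 1118 and 1361 CPM, against 1114, 697 and 610.4 CPM in wild type replicates 1 to 3. FOG2 overexpression replicate 1 was therefore close to the lower wild type libraries, and wild type replicate 1 was close to FOG2 overexpression replicate 3. FOG2 overexpression replicate 1 was the lowest of its group in 37 of 40 members, against 34.2% of all tested genes, the exceptions being Rsad2, Ifit2 and Ifi27. Wild type replicate 1 was the highest of its group in 39 of 40 members, against 28.8% of all tested genes, the exception being Ifi35. FOG2 overexpression replicates 2, 3 and 4 were all above the 3 wild type libraries in 21 of 40 members (52.5%), against 12.8% of all tested genes.

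Without FOG2 overexpression replicate 1, 12 members were called higher (30.0%, against 3.74% of all tested genes) and 0 lower (against 4.99%). These were Rsad2, Ifit2, Ifit3b, Irf7, Usp18, Ddx58, Dhx58, Oasl1, Cmpk2, Mx1, Bst2 and Trim30a, and the median log2 fold change of the 40 members was 0.90. None of the GTPases or antigen processing genes was among them. That library was left out because it stood apart across all genes, as given above. It is also the library in which most members were lowest, so the 12 calls describe the other 6 libraries. Leaving out any other single library gave 1 to 3 members called higher, with 3 when wild type replicate 1 was left out. In that last setting the members' median log2 fold change was 1.03, the highest of any setting, against 0.02 over all tested genes. Without FOG2 overexpression replicate 1, wild type replicate 2 was also the only male library. Whether the dividing-cell markers or lower Zfpm2 level of FOG2 overexpression replicate 1 bear on the members' levels was not tested.

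**Figure D3:**
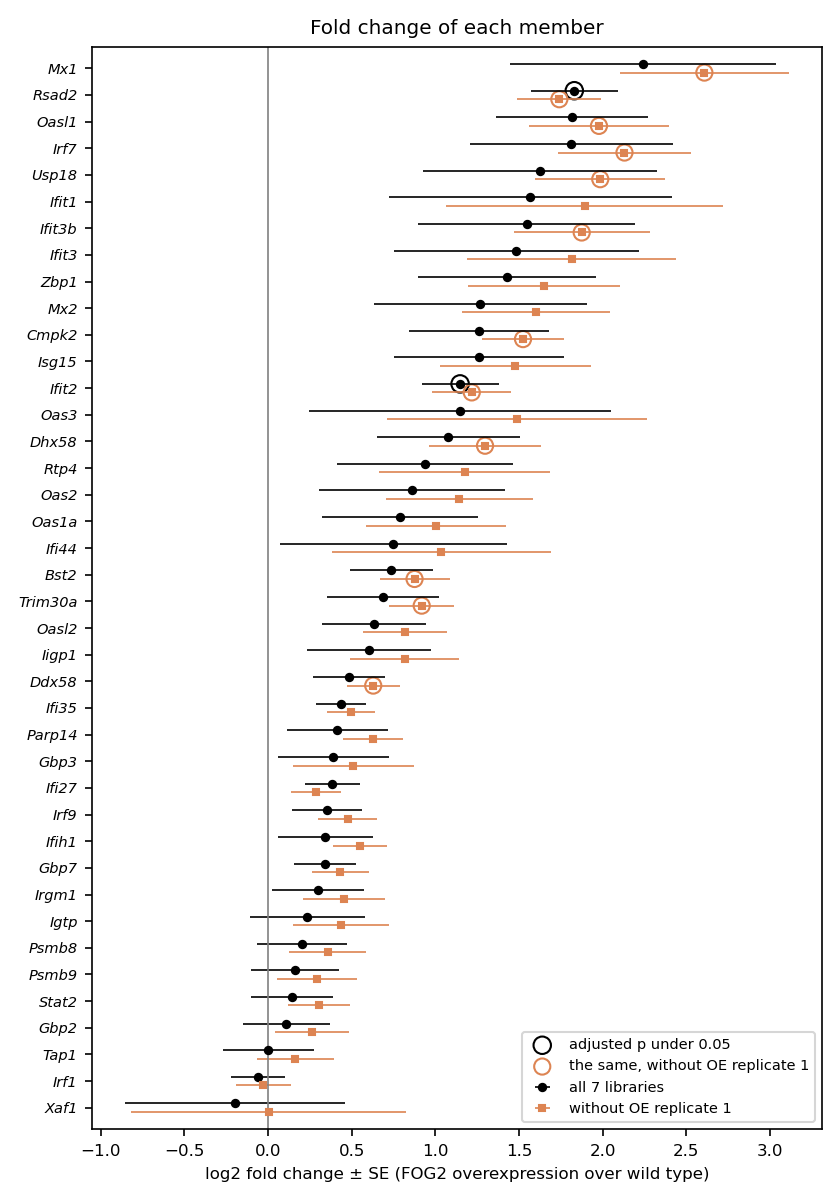
Log2 fold change ± SE (FOG2 overexpression over wild type) of each member from edgeR, with all 7 libraries (black) and without FOG2 overexpression replicate 1 (orange); rings mark an adjusted p under 0.05. With all libraries 2 members are ringed, Rsad2 and Ifit2, and without that replicate 12 are.

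Sex was unevenly spread over the groups, so the members were also compared within sex. In the male pair, FOG2 overexpression replicate 1 was above wild type replicate 2 in 25 of 40 members (62.5%), against 51.0% of all tested genes, with a median log2 ratio of 0.13 over the members and 0.01 over all tested genes and no replicate. Among the female libraries, 3 of FOG2 overexpression and 2 of wild type, 4 members were called higher by edgeR: Rsad2, Ifit2, Oasl1 and Cmpk2 (10.0%, against 2.19% of all tested genes). Every female FOG2 overexpression library was above both female wild type libraries in 21 of 40 members (52.5%), against 17.3% of all tested genes. The median log2 fold change of the members was 0.84 among the female libraries. This comparison was chosen after the data were seen.

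Upstream of the members, 20 of 21 interferon ligand genes were listed at 0 in every library. For near-identical genes such as the Ifna family these zeros set no upper limit, since 37.1% to 43.4% of reads aligned to several places and were not counted. How far this applies to the other ligand genes at 0, such as Ifnb1, was not tested. The haemoglobin genes Hba-a1, Hba-a2, Hbb-bs and Hbb-bt were likewise listed at 0 in all 7 libraries, although Alas2, the first enzyme of haem synthesis in red cells, had 25.8 to 221 CPM. Ifng, the gene of interferon gamma, had 0 counts in the 4 FOG2 overexpression libraries, against 1 count in wild type replicate 1 and 2 in wild type replicate 2. Of 11 receptor and JAK-STAT genes, 0 rose and 2 fell. Ifngr2, the signalling chain of the interferon gamma receptor, had 96.9, 98.1, 110.1 and 100.4 CPM in FOG2 overexpression, against 171, 164 and 163 CPM in wild type. The groups were far apart, with a log2 fold change of -0.71 ± 0.09 (edgeR adjusted p = 0.00201), and it passed in all 16 settings. Jak1, a kinase shared by both interferon receptors, had 159, 193, 173 and 175 CPM in FOG2 overexpression, against 315, 327 and 230.1 CPM in wild type (-0.73 ± 0.13; adjusted p = 0.0161). The adjusted p of Jak1 was 0.0504 without FOG2 overexpression replicate 3, 0.0842 when wild type replicate 1 was left out and 0.0901 when replicate 2 was.

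The type I receptor genes did not pass. Ifnar1 averaged 59.4 ± 5.23 CPM in FOG2 overexpression and 56.4 ± 3.97 CPM in wild type, and Ifnar2 46.4 ± 6.50 CPM in FOG2 overexpression and 42.5 ± 1.55 CPM in wild type. Of 9 other interferon regulatory factor genes, 14 sensing and adaptor genes and 16 negative regulators that were tested, 0 rose and 0 fell.

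**Figure D4:**
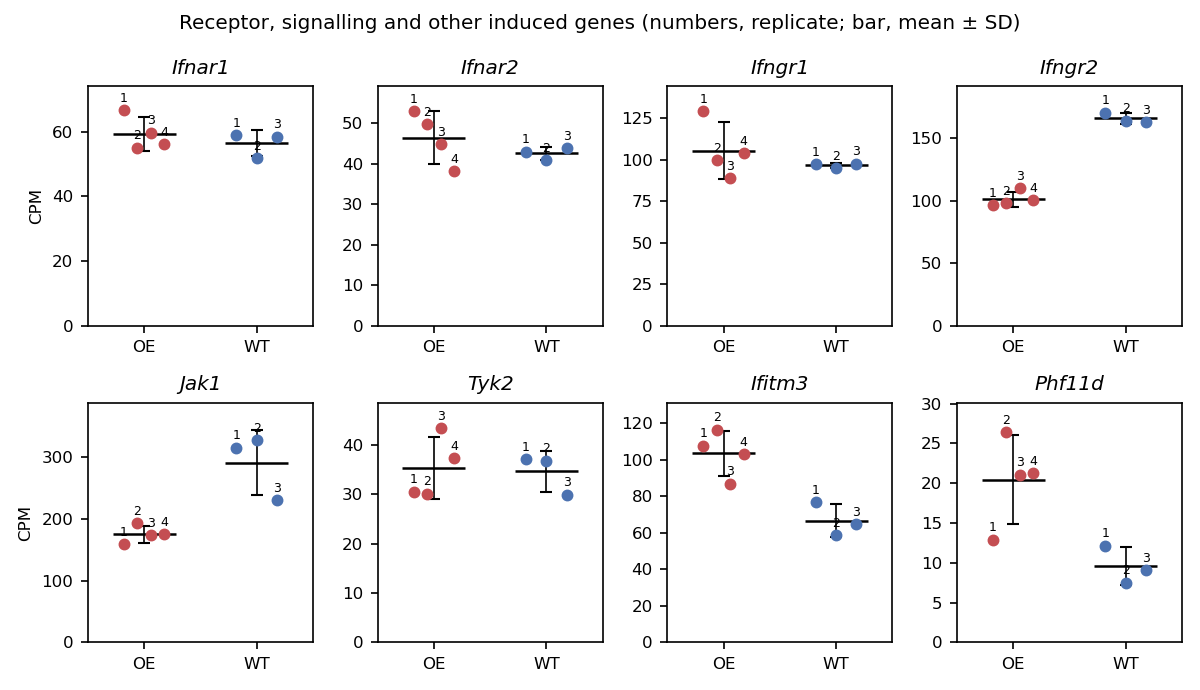
CPM of 8 genes outside the 40 members in each FOG2 overexpression (OE, red) and wild type (WT, blue) library, with replicate numbers and the mean ± SD, on linear axes from 0 with a scale for each panel. Ifngr2 and Jak1 are lower in every FOG2 overexpression library, Ifitm3 and Phf11d are higher, and Ifnar1, Ifnar2, Ifngr1 and Tyk2 overlap.

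Of 56 other interferon-stimulated genes tested, 2 rose (against 1.55% of all tested genes) and 0 fell, with a median log2 fold change of 0.24. When FOG2 overexpression replicate 1 was left out, 7 of this list rose (against 3.74% of all tested genes) and 0 fell. The median was then 0.32. Ifitm3, a membrane protein that blocks virus entry, had 108, 117, 87.0 and 103 CPM in FOG2 overexpression, against 76.7, 58.8 and 64.9 CPM in wild type (0.63 ± 0.13; edgeR adjusted p = 0.0270), and passed in 10 of 16 settings. Phf11d had 12.9, 26.4, 21.1 and 21.3 CPM in FOG2 overexpression, against 12.2, 7.49 and 9.11 CPM in wild type (1.08 ± 0.26; adjusted p = 0.0499), and passed in 6 of 16. In both genes the groups did not overlap, although in Phf11d FOG2 overexpression replicate 1 was close to wild type replicate 1. Among 14 further MHC class I genes 0 passed, with a median of 0.10. Of 6 MHC class II genes tested 0 passed, with a median of -0.82; the list summed to 30.0, 167, 50.5 and 17.8 CPM in FOG2 overexpression, against 166, 144 and 58.6 CPM in wild type.

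Markers of cells that could carry these genes are given beside them. Of 15 macrophage markers 0 passed and 12 had a fold change above 0, with a median log2 fold change of 0.27. Their summed level was 988, 1153, 830.0 and 867 CPM in FOG2 overexpression replicates 1 to 4, against 939, 834 and 692 CPM in wild type replicates 1 to 3. Within FOG2 overexpression replicate 1 was thus not the lowest, unlike in the members' sum. T cell markers summed to 4.89 to 8.95 CPM in FOG2 overexpression and 5.30 to 10.7 CPM in wild type, and NK cell markers to 1.63 to 3.90 CPM in FOG2 overexpression and 1.35 to 4.29 CPM in wild type. Neutrophil markers summed to 5.44, 11.3, 6.09 and 15.1 CPM in FOG2 overexpression replicates 1 to 4, against 11.4, 4.38 and 6.90 CPM in wild type, and 0 of the 3 tested passed. Their sum, like that of the members, was lowest in replicate 1 within FOG2 overexpression and highest in replicate 1 within wild type. It rested on 292 counts over the FOG2 overexpression libraries and 183 over the wild type libraries. Of 9 plasmacytoid dendritic cell markers, among them the members Bst2 and Irf7, 6 were tested and 0 passed, with Klk1 at 0 in every library. Their sums were 241 to 298 CPM in FOG2 overexpression and 231 to 247 CPM in wild type. Most of each sum was Tcf4 alone, at 200 to 215 CPM in FOG2 overexpression and 188 to 193 CPM in wild type. This sum includes the members Bst2 and Irf7, so its order over the libraries is not separate from theirs. It was lowest in replicate 1 within FOG2 overexpression and highest in replicate 1 within wild type. Tcf4 alone was lowest in replicate 1 of each group, with 188, 191 and 193 CPM in wild type replicates 1 to 3. Of 10 fibroblast markers 0 passed and 9 had a fold change above 0, with a median log2 fold change of 0.46. They summed to 18428, 19504, 17955 and 16051 CPM in FOG2 overexpression replicates 1 to 4, against 12255, 11592 and 16433 CPM in wild type. Here too replicate 1 was not the lowest within FOG2 overexpression. B cell markers summed to 1.40 to 2.96 CPM in FOG2 overexpression and 2.96 to 3.46 CPM in wild type. Of 12 vascular endothelium markers 1 fell, Cd36, and 1 had a fold change above 0, with a median log2 fold change of -0.15. Of 12 smooth muscle and pericyte markers 3 rose, Acta2, Cspg4 and Notch3, and of 11 atrial cardiomyocyte markers tested 5 fell, among them Dkk3, Kcnj3, Sln and Ryr2. The summed level of the 12 cardiomyocyte markers was 54071 to 71890 CPM in FOG2 overexpression and 87020 to 99592 CPM in wild type. Whether these differences bear on the members was not tested.

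**Figure D5:**
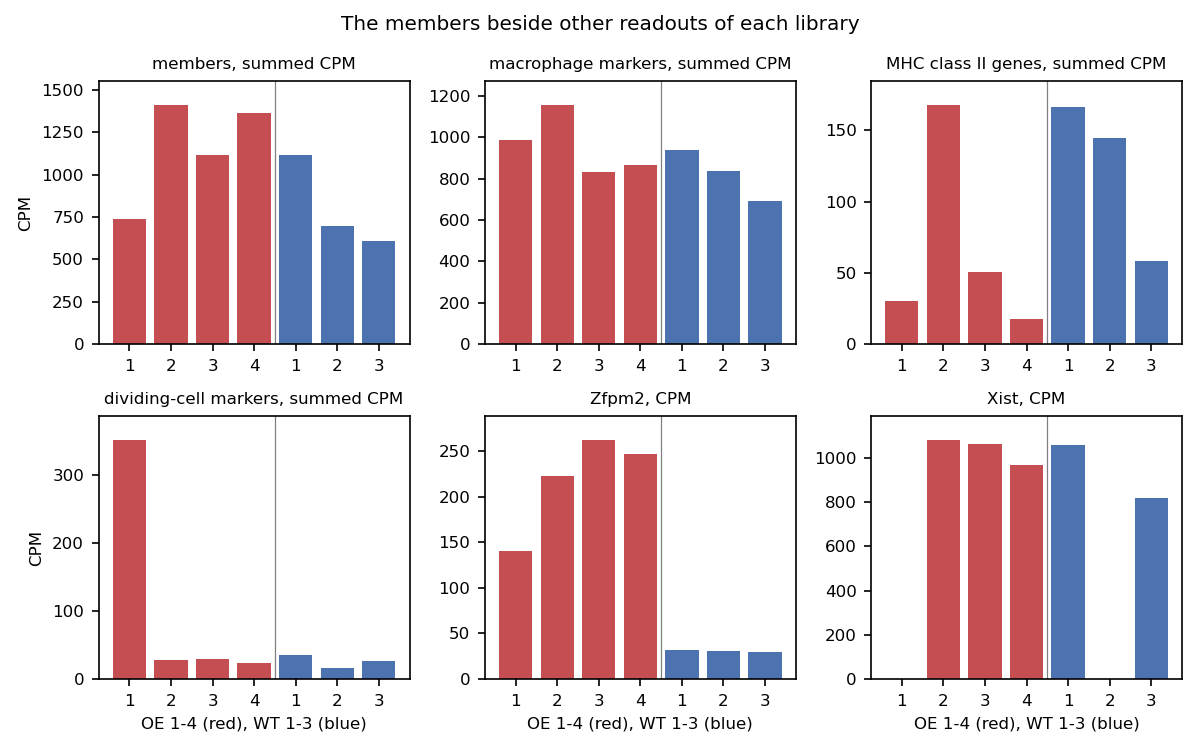
Summed CPM of the 40 members, of macrophage markers, of MHC class II genes and of dividing-cell markers, and CPM of Zfpm2 and Xist, in FOG2 overexpression replicates 1 to 4 (red) and wild type replicates 1 to 3 (blue), as bars from 0. The members' sum is lowest within its group in FOG2 overexpression replicate 1, at 739.5 CPM, where the dividing-cell markers reach 352 CPM, and highest within wild type in replicate 1, at 1114 CPM.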

How the data were processed

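RNA was measured in 7 libraries of left atria. The deposited values are counts per gene; per the submitters' processing notes, their tools were STAR, HTSeq 0.6.0 and DESeq2 and their build mm10, with no roles given. The strand setting, the annotation and the other versions were not given in the sources used here. Reads that named no gene (no feature, ambiguous, several places) were left out of library sizes; they were 66.9% to 72.2% of each library.

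The filter on low counts was filterByExpr with the 2 groups and its defaults (a minimum count of 10 and total of 15). After TMM scaling, the robust quasi-likelihood F test of edgeR 4.0.16 (R 4.3.3) was run, two-sided and with no covariate. Adjusted p is Benjamini-Hochberg over all tested genes, called at 0.05. SE is the absolute log2 fold change over the square root of F. A prior count of 2 was added for log2 CPM. The script was tested on simulated data. The limit for 0 counts is 3 counts per library and covers counting error only.

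Full values are given for Zfpm2, called members, those with the smallest p up to 12 and the 3 most abundant; in other lists, for called genes, at most 4. Usp18, Ifit1, Ifit3, Irf1, Iigp1, Xaf1, Ifnar1, Ifnar2, Ifngr1, Tyk2 and Tcf4 were added after their values were seen. Members, lists and tests were chosen with earlier results of these data known. Alternatives used DESeq2 1.42.0 and limma 3.58.1. Positions come from GENCODE M21, promoters from RefSeq GRCm38.p6. The values of 1 signalling gene are not reported here.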

Additional observations from a re-analysis of the deposited data

Results flagged for a closer look

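Iigp1, an immunity-related GTPase, had 38.2 CPM in FOG2 overexpression replicate 1, against 78.5 to 86.6 CPM in the other 3 libraries of that group, a gap above the critical value of Dixon's test for 4 samples. Of 55 items examined, which were the genes named in the text, the summed level of the members and the share of ambiguous reads, it was the 1 that met this criterion. Chance alone flags about 1 in 20 groups.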

How the results depend on the processing

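The members' median log2 fold change stayed above 0 in every setting, from 0.49 to 1.03 when 1 library was left out, and no setting called a member lower. Members called higher numbered 6 of 40 with DESeq2, which called 460 of 13295 genes higher. They numbered 4 in the female libraries (added after the data were seen), against 2.19% of all tested genes there. With 1 library left out they numbered 1 to 3, except for 12 without FOG2 overexpression replicate 1 (against 3.74% of all tested genes). Over all genes, 206 were called higher and 438 lower; DESeq2 gave 460 and 681, and library totals without TMM gave 444 and 294, with a median log2 fold change of 0.15 over all genes, against 0.02 with TMM, and 0.83 over the members. With 1 library left out, 75 to 493 genes were higher and 181 to 658 lower.

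Deviations of same-numbered libraries from their group means correlated at 0.0789, 0.0136 and 0.0720, against -0.101 to 0.152 for differently numbered libraries. These values do not settle whether the numbers mark pairs. The labels name no pairs, so the numbers were not taken as pairs. With a replicate block, 129 genes were called higher, 253 lower and 1 member, Rsad2, higher; the adjusted p of Ifit2 was 0.0735.

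The fold change changed sign in 8 members, each with a log2 fold change smaller than its SE in the main fit. The cause was not tested. Irf1 was 0.0561 with library totals. Xaf1 was 0.23 with limma-voom and 0.19 with the replicate block. Under the block Stat2 was -0.00783 and Tap1 -0.00768, and Tap1 was -0.0404 with the Y-linked level as covariate. With 1 library left out the log2 fold change spanned -0.61 to 1.25 for Xaf1, -0.18 to 0.15 for Irf1, -0.0323 to 0.35 for Stat2, -0.0491 to 0.40 for Gbp2, -0.0436 to 0.59 for Igtp, -0.0214 to 0.48 for Psmb8, -0.0122 to 0.41 for Psmb9 and -0.25 to 0.20 for Tap1. Depth limits the least abundant members, such as Oas3, which had 0 counts in 1 library.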
